A study of Mus musculus with 2 samples.

Results

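The small nucleolar RNA host genes Snhg1, Snhg3, Snhg5, Snhg6, Snhg8, Snhg12 and Gas5 were examined in mouse embryonic stem (ES) cells kept in suspension with or without doxycycline (dox). They were chosen by name, with their values in these libraries already known. Of the 7 genes, 5 had a row among the 14261 rows of the deposited expression table: Snhg3, Snhg5, Snhg6, Snhg12 and Gas5. Snhg1 and Snhg8 had none under these symbols and are described here by annotation only. The study comprised 2 RNA-seq libraries of cells labelled TRE-ESC, grown in low-adsorption dishes in N2B27 medium with 2i (inhibitors of the kinases MEK and GSK3) and the cytokine LIF, conditions that keep such cells naive. TRE-suspend-36h received no agent, and TRE-suspend-adox-36h received dox, an antibiotic that serves as a switch for transgenes under tetracycline control. Both are labelled 36 h, and by its title the series asks about c-Jun and differentiation. The sources used here do not say whether the cells are 1 clone or how the transgene is built. With 1 library per group no difference has a replicate check, and no test was made.

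Small nucleolar RNAs (snoRNAs) guide the chemical modification and cleavage of ribosomal RNA. Box C/D snoRNAs direct 2′-O-methylation and box H/ACA snoRNAs direct pseudouridylation, each bound to its own set of core proteins. In mammals most are cut out of introns. The genes named Snhg, and Gas5, are hosts whose spliced exons carry little conserved coding potential, and several of their spliced RNAs are known as substrates of nonsense-mediated decay, the pathway that degrades RNAs on which translation ends early. Many such hosts begin with a run of pyrimidines, the 5′ terminal oligopyrimidine (TOP) sequence shared with messenger RNAs of ribosomal proteins. Gas5 is named growth arrest-specific transcript 5 because its RNA accumulates in cells that stop growing. The values below are those of the host RNAs. The snoRNAs themselves were not analysed here.

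The measured hosts differ in what they carry. In GENCODE M21, on the build GRCm38, Gas5 held 9 snoRNA loci, Snhg12 held 4, Snhg3 and Snhg5 held 2 each and Snhg6 held 1. Snhg1 held 8 and Snhg8 held 1. Each annotated entry within the 7 genes lay in an intron of at least 1 host transcript. Gas5, Snhg5 and Snhg6 are box C/D hosts, Snhg3 holds box H/ACA snoRNAs, and Snhg12 holds both kinds. In Gas5 1 entry, Gm22489, was not assigned to a class. The following snoRNAs, taken from the GENCODE transcripts, show the payload of each measured host. Capitals mark box C (TGATGA) and box D (CTGA) in the box C/D snoRNAs and the ACA box in the box H/ACA snoRNA.
Snord50a: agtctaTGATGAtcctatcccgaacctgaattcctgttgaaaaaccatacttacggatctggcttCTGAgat
Snord50b: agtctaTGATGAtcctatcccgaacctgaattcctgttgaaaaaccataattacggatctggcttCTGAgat
Snord47: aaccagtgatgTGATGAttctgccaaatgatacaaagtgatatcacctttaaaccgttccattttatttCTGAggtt
Snord87: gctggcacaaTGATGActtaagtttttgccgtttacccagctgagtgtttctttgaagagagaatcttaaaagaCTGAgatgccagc
Snord99: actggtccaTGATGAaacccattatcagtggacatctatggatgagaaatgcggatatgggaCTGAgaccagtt
Snora73a: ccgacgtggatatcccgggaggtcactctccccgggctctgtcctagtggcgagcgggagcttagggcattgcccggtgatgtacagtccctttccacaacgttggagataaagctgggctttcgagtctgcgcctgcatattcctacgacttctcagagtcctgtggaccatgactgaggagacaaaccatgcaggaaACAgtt

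Snord50a (chr9:88521529-88521600, minus strand) and Snord50b (chr9:88521797-88521868, minus strand) are both carried by Snhg5. They have 72 bases each and differ at 1 of them, C50A, counted from the 5′ end of Snord50a, which gives 98.6% identity. Snord47 (chr1:161038082-161038158, plus strand) lies in Gas5, Snord87 (chr1:9942463-9942549, minus strand) in Snhg6, and Snord99 (chr4:132310691-132310764, plus strand) in Snhg12. Snora73a (chr4:132352775-132352979, minus strand), known as U17 and needed for the processing of ribosomal RNA, lies in Snhg3. Its partner Snora73b in the same gene has the same length of 205 bases and differs at 7 of them. The map of the hosts shows how densely Gas5 and Snhg12 are filled with snoRNAs compared with Snhg6.

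**Figure D1:**
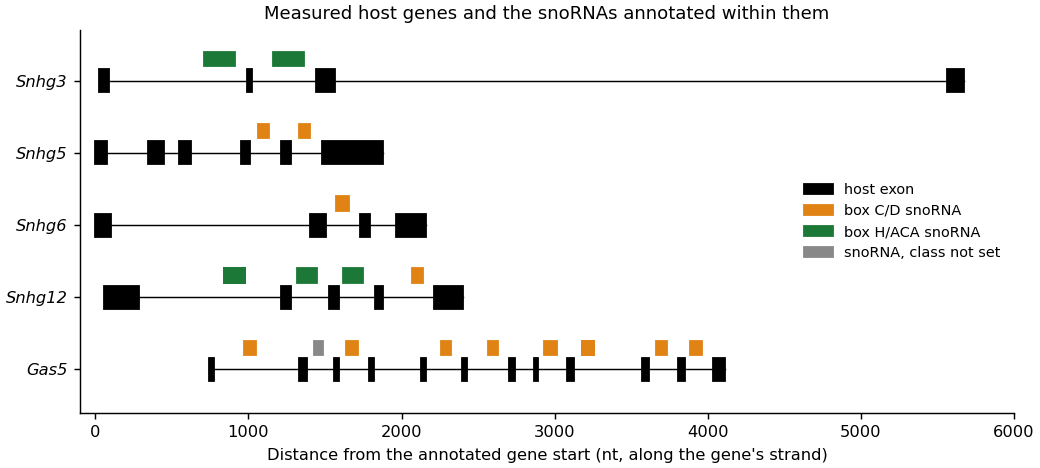
Exons (black) of 1 annotated transcript of each measured host and the snoRNAs annotated in the gene (coloured boxes above the line), against the distance from the annotated gene start in nt along the gene's strand. The transcript drawn is the one with the most exons that is not annotated as a retained intron. Gas5 holds 9 snoRNA loci, all box C/D but 1 not assigned, whereas Snhg3 holds 2 of box H/ACA.

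All 5 measured hosts had a lower value with dox than without it. The values are whole numbers on a normalized count scale that the authors deposited, and folds are ratios after 10 was added to each value. By fold, Snhg5 differed the most, 2.29-fold lower with dox, followed by Gas5 at 1.89-fold, Snhg3 at 1.63-fold, Snhg12 at 1.49-fold and Snhg6 at 1.29-fold. With 1 library per group, whether neighbours in this order differ cannot be told. A lower value was common in this comparison: 54.9% of genes were lower with dox by any amount. The base is the 8547 genes with a value of 50 or more in at least 1 library, called the floor below. Of the 5 hosts 3 were at least 1.5-fold lower, as were 17.7% of all genes.

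Snhg5, the host of both Snord50 copies, stood at 386 without dox and 163 with dox, a log2 ratio of −1.19. It lies on chromosome 9, minus strand, from 88521050 to 88522929 and is annotated as a processed transcript. Of the 8547 genes, 3.10% had a lower log2 ratio. Snhg5 was the only measured member past the 2-fold threshold, 1 of 5, where 5.49% of all genes were at least 2-fold lower and 9.23% at least 2-fold higher. The members were chosen with these values known, so nothing is read from that count.

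Gas5, the host with the most snoRNA loci of the 5, stood at 795 without dox and 416 with dox, a log2 ratio of −0.92. It lies on chromosome 1, plus strand, from 161034422 to 161038539, and 6.93% of genes had a lower log2 ratio. The start of the annotated gene overlaps that of Zbtb37, a zinc finger gene on the opposite strand, by 428 nt, with no exon base in common. Zbtb37 stood at 97 and 47, so both genes at this pair of starts had lower values with dox, by 1.89-fold for Gas5 and 1.88-fold for Zbtb37.

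Snhg3, a host of the 2 Snora73 genes, stood at 88 without dox and 50 with dox, a log2 ratio of −0.71. It lies on chromosome 4, minus strand, from 132348014 to 132353686. Its values are uncertain because of overlapping genes. Rcc1, which encodes the nucleotide exchange factor of the GTPase Ran, starts 81 nt from Snhg3 on the same strand and shares 135 of the 986 exon bases of Snhg3. Rcc1, named after its values were seen, was higher with dox, at 465 and 602. The annotated span of Rcc1 also holds both Snora73 genes, so it is among the protein coding hosts below. On the opposite strand the long noncoding gene Gm17300 covers 705 of the 986 exon bases, or 71.5%, and stood at 143 and 58, 2.25-fold lower with dox. The labels do not state whether strand was kept, so reads of Snhg3 and Gm17300 may not have been told apart where they overlap.

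Snhg12, which lies on chromosome 4, plus strand, from 132308623 to 132311024, stood at 84 without dox and 53 with dox, a log2 ratio of −0.58. It carries the box H/ACA genes Snora16a, Snora44 and Snora61 beside Snord99. Snhg6, which lies on chromosome 1, minus strand, from 9941959 to 9944118, stood at 136 without dox and 103 with dox. Its log2 ratio of −0.37 was the one nearest to 0, and 29.5% of all genes had a lower one. At its end it shares 127 exon bases with Mcmdc2, a gene of meiotic recombination on the opposite strand. Mcmdc2 stood at 33 and 10, under the floor of 50. Reads of Snhg6 and Mcmdc2 may not have been told apart in these bases either.

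**Figure D2:**
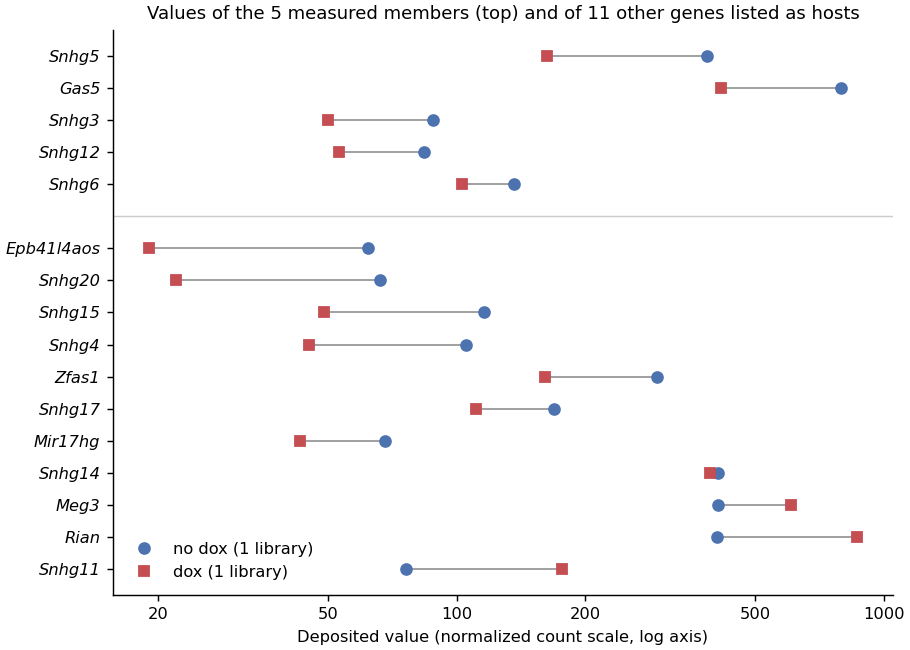
Deposited values of the 5 measured members (top) and of 11 other genes listed by name as noncoding hosts, with a larger value of at least 50 (bottom), without dox (circles) and with dox (squares), on a log axis of the normalized count scale. There is 1 library per group, so no error is drawn. The 5 members all have their square to the left of their circle, and Meg3, Rian and Snhg11 have it to the right.

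The starts of the hosts were compared next, in RefSeq promoters on GRCm38.p6 that run from 250 bases before the start to 50 bases from it. Snhg3, Snhg5, Snhg12 and Gas5 had an entry, 4 of the 5 measured members, and Snhg6 had none. The 90 bases from 60 before the start are printed for the members with an entry, since these are the letters the measured genes could share. Gas5 has 2 entries, and the printed one is that with the longer pyrimidine run. Capitals mark the longest run of pyrimidines (C or T) that begins within 10 bases of the start, TATAAA, and TGACGTCA.
Snhg5: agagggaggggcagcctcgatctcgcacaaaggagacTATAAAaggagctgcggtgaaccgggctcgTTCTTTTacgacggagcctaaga
Gas5: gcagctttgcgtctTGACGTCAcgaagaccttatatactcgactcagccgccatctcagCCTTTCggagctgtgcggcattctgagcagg
Snhg3: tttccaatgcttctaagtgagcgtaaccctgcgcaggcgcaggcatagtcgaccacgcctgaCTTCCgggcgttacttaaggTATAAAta
Snhg12: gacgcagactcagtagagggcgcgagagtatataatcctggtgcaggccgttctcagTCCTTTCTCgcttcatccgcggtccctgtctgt

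These windows are chr9:88522868-88522957 (minus strand) for Snhg5, chr1:161035106-161035195 (plus strand) for Gas5, chr4:132353657-132353746 (minus strand) for Snhg3 and chr4:132308618-132308707 (plus strand) for Snhg12. The pyrimidine run had 9 bases in Snhg12, and 5.74% of the 32851 promoters in the RefSeq table had one as long. It had 7 bases in Snhg5, as long as in 13.9% of promoters, and 6 bases in the printed Gas5 promoter, as long as in 22.2%. In Snhg3 it had 5 bases, reached by 36.7% of promoters. In the other Gas5 entry it had 3 bases, as long as in 77.9% of promoters. The run spanned the start in Snhg12 and in the printed Gas5 promoter. In Snhg5 it began at base 8 and in Snhg3 at base 3, counting the start as the first base, so these runs lay after the start. The width of this search was chosen after the sequences were seen. TATAAA, the letters of a TATA box, began 23 bases before the start in Snhg5 and 22 bases after it in Snhg3, and 13.6% of promoters held it on either strand. On the plus strand, from 20 to 50 bases before the start, where the match of Snhg5 lies, 2.32% of promoters held it.

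Since the series concerns c-Jun, which binds DNA as part of the factor AP-1, the letters TGANTCA and TGACGTCA were searched on both strands of the whole 300-base windows. TGANTCA stood in none of the promoters of Snhg1, Snhg3, Snhg5, Snhg8, Snhg12 or Gas5 and in 7.81% of all promoters. TGACGTCA, the cAMP response element, began 46 bases before the start in the printed Gas5 promoter and stood in 1.79% of all promoters. CACGTG, an E-box, stood in none of these windows and in 7.15% of all. A match describes letters and is not a measured site, and a missing match says nothing about the factor.

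Transcript length moved with the log2 ratio in this comparison, and the hosts are short. The longest annotated transcript had 581 nt in Snhg3, 816 in Snhg6, 1221 in Snhg5, 1538 in Snhg12 and 2556 in Gas5, against a median of 3566 nt over genes outside the set. The median log2 ratio was −0.47 for the 73 genes under 600 nt and 0.19 for the 1420 genes of 6000 nt or more. Among the other 2357 genes in the length range of the members it was −0.28, and 68.9% had a lower value with dox. Against that range Snhg5 stayed low, with 5.55% of genes in it below its log2 ratio, while 42.8% were below that of Snhg6.

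With the trend on length removed, the log2 ratio of Snhg5 was −0.83 and that of Gas5 −0.74. Snhg12 was at −0.27 and Snhg3 at −0.25. Snhg6 was at 0.053, on the other side of 0. The median of the 5 members went from −0.71 to −0.27, and none of the 5 was then at least 2-fold lower. The length of Gas5 used here is that of a retained-intron transcript, and its median annotated transcript has 629 nt. With the median transcript length of each gene in its place, an alternative added after the data were seen, Gas5 was still at −0.74, Snhg5 at −1.06 and Snhg6 at −0.17. The part of length in the members' values was not tested.

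**Figure D3:**
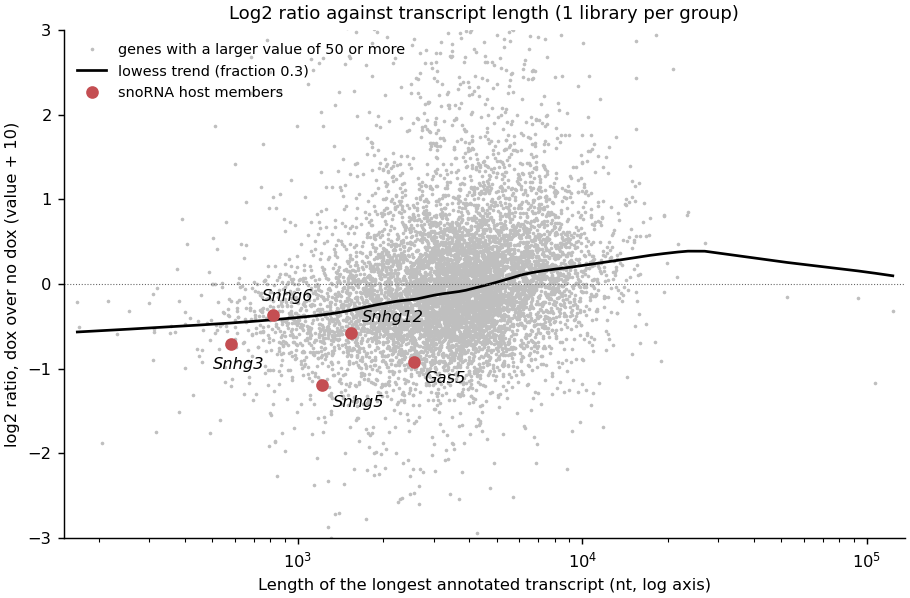
Log2 ratio of dox over no dox (value plus 10) against the length of the longest annotated transcript in nt (log axis) for genes with a larger value of at least 50, with the lowess trend as a line and the 5 measured members as large points. The 114 genes beyond a log2 ratio of 3 in either direction are not drawn. Snhg5 and Gas5 lie below the trend, and Snhg6 lies on it.

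The members were then set beside other noncoding genes, which were lower with dox as a class. Of 108 noncoding genes with no snoRNA annotated in them, 20 were at least 2-fold lower and 2 at least 2-fold higher, or 18.5% and 1.85%. Their median log2 ratio was −0.36, against −0.08 for all 8547 genes, and 72.2% had a lower value with dox. In the length range of the members 48 such genes had a median of −0.52, and 12 of them, or 25%, were at least 2-fold lower. The members' count of 1 in 5 is near these shares. Of the 108 genes, 13.9% had a log2 ratio below that of Snhg5, 21.3% below that of Gas5, 31.5% below that of Snhg3, 36.1% below that of Snhg12 and 54 genes below that of Snhg6.

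Noncoding genes other than the members that hold an annotated snoRNA on the same strand were similar in direction. Of 10 such genes that reached the floor, 9 were lower with dox, 2 of these past 2-fold, and the median was −0.82. The 2 past 2-fold, Epb41l4aos and Snhg15, reached the floor only through the library without dox. The gene not lower with dox was Rian, a long imprinted host of many box C/D snoRNAs, at 407 without dox and 867 with dox. By contrast, 155 protein coding genes that hold an annotated snoRNA had a median log2 ratio of −0.03, with 51.6% of them lower by any amount. Of these 1.94% were at least 2-fold lower and 7.1% at least 2-fold higher. The longest transcripts had a median of 2145 nt in the 10 noncoding hosts and 4073 nt in the 155 protein coding ones. With the length trend removed the median log2 ratios were −0.47 and −0.004. For the 108 noncoding genes without an annotated snoRNA it was then −0.22, and for the 48 in the length range −0.20. That of the members was −0.27. No test was made of the difference between these classes.

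**Figure D4:**
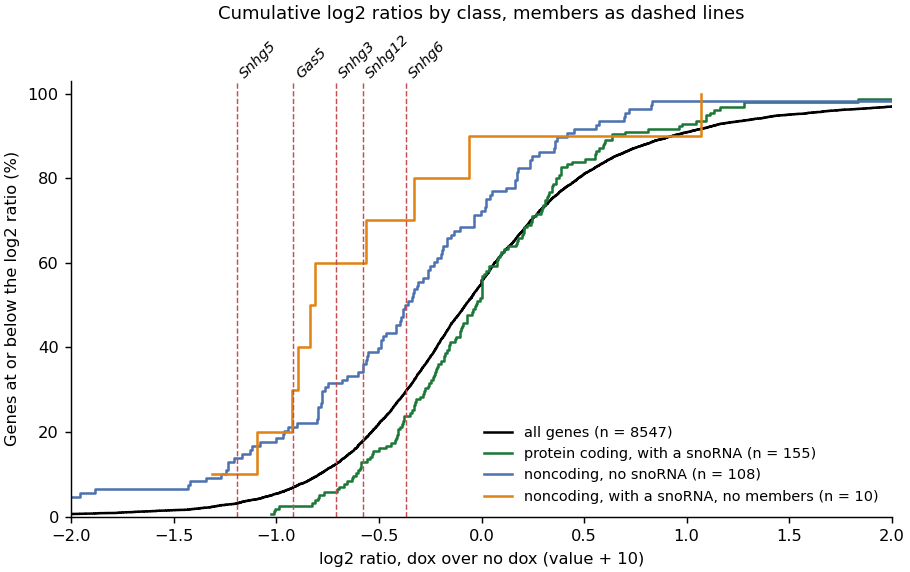
Cumulative share of genes (%) at or below each log2 ratio of dox over no dox (value plus 10), for all 8547 genes that reach the floor and for 3 classes by annotation, with the 5 members as dashed lines. The curve of noncoding genes without a snoRNA lies to the left of the curve of all genes, with medians of −0.36 and −0.08.

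A list of 18 other genes known as noncoding hosts of small RNAs was followed by name. By the annotation used here 6 of the 11 that reached the floor are noncoding genes with a snoRNA. Meg3, Mir17hg, Snhg4 and Snhg20 were not matched to one, and Snhg11 is annotated as protein coding and is also among the 155 genes above. Of 15 with a row, 4 were under the floor, and of the 11 others 4 were at least 2-fold lower and 2 at least 2-fold higher, with a median log2 ratio of −0.56. The lower ones were Epb41l4aos at 62 without dox and 19 with dox, Snhg20 at 66 and 22, Snhg15 at 116 and 49, and Snhg4 at 105 and 45. Each of these 4 had a fold of 2.09 to 2.48, in the range of Snhg5. All 4 reached the floor only through the library without dox, whereas Snhg5 reached it in both libraries. Within 2-fold were Zfas1, a host of box C/D snoRNAs near the Znfx1 gene, at 295 and 161, Snhg17 at 169 and 111, Mir17hg, the host of a microRNA cluster, at 68 and 43, and Snhg14 at 410 and 392. The hosts with larger values with dox were Snhg11 at 76 and 176 and Rian, past 2-fold, and Meg3, an imprinted neighbour of Rian, at 409 and 607. Meg3, Rian, Snhg11 and Snhg14 have long transcripts, of 14548, 8089, 5864 and 6861 nt. The 4 hosts under the floor were Snhg7 at 45 and 27, Dancr at 40 and 21, Ftx at 26 and 19, and Snhg18 at 12 and 3, each with the smaller value with dox.

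The proteins that bind the snoRNAs were followed through lists by role. All 4 measured core proteins of box C/D particles were within 2-fold, with a median log2 ratio of −0.43. Nop56, itself a snoRNA host, stood at 1569 without dox and 787 with dox, the scaffold protein gene Nop58 at 1178 and 905, the methyltransferase gene Fbl, which encodes fibrillarin, at 778 and 577, and Snu13 at 607 and 449. Of 6 box H/ACA genes 2 were at least 2-fold lower, the core protein genes Nhp2, at 645 and 300, and Gar1, at 195 and 84, and the median was −0.81. Dkc1, which encodes the pseudouridine synthase of these particles and was named after its values were seen, was the one with a larger value with dox, at 855 and 1063. Of 10 assembly and transport genes that reached the floor all 10 had a smaller value with dox and 1 was at least 2-fold lower. That 1 was Nolc1, which encodes a nucleolar and Cajal body protein, at 966 and 466. Znhit3, at 68 and 48, reached the floor only through the library without dox. Taf9, the listed gene under the floor, stood at 8 and 15, and both were named after their values were seen. The median of the 10 genes was −0.58. These medians compare with −0.08 over all genes, and with the length trend removed they were −0.41, −0.52 and −0.37. Of all genes 5.49% were at least 2-fold lower and 54.9% were lower by any amount.

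Protein coding hosts were represented by 16 of 40 listed genes, and 15 were within 2-fold, with a median log2 ratio of −0.24. Taf1d, a subunit gene of a transcription factor of RNA polymerase I, was lower, at 306 and 145. Exactly equal values in both libraries stood in 5 of the 16, among them Ncl, which encodes nucleolin, at 14907, named after its values were seen. Atp5b with dox also stood at 14907. Eef1b2, another of the 5, stood at 3821 in both libraries, as did Jun with dox. Atp5b and Eef1b2 were named after their values were seen. Distinct genes thus share levels on this scale, and equal values are not read as a lack of change. The part of the scale in equal values was not tested. Factors of nonsense-mediated decay, which degrades spliced host RNAs, had 17 members that reached the floor, all within 2-fold, with a median of −0.31. The helicase gene Upf1 stood at 534 in both libraries, the kinase gene Smg1 at 1060 and 920 and Smg5 at 804 and 611. Of 10 genes with transcripts known to accumulate when this decay is reduced 1 was past 2-fold, and the median was −0.14. The values are per gene and do not separate the transcript forms of a gene. The gene past 2-fold was the growth arrest gene Gadd45a, at 20 and 181. Gadd45a reached the floor only through the library with dox, and 9.23% of all genes were at least 2-fold higher. Regulators of the translation of TOP messenger RNAs had a median of 0.05 with all 15 within 2-fold, among them Larp1, which encodes the protein that binds the TOP sequence, at 770 and 742, Cnbp at 2060 and 1337, Eif4ebp1 at 691 and 817 and Larp4 at 656 and 674.

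**Figure D5:**
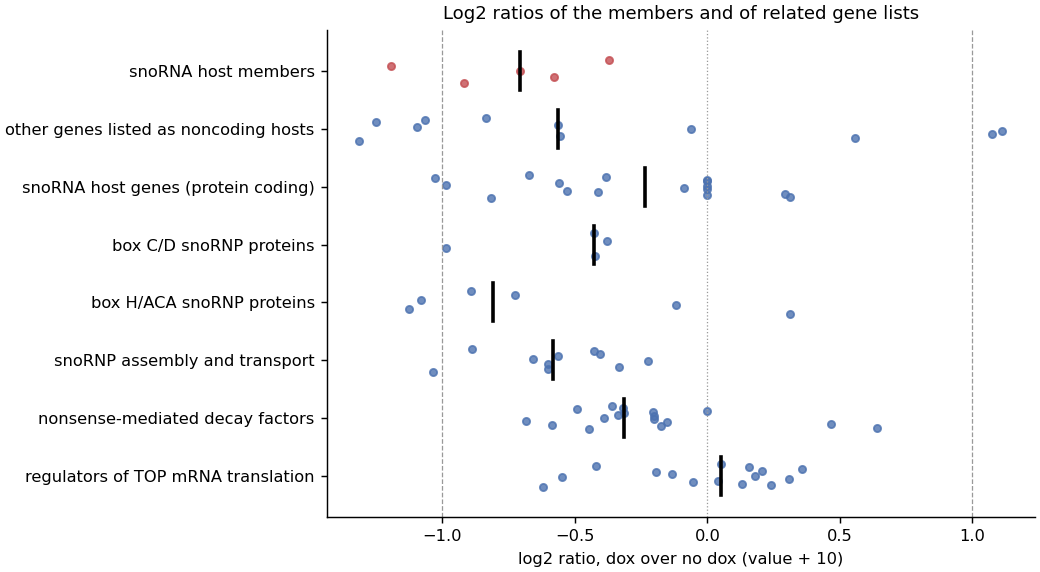
Log2 ratio of dox over no dox (value plus 10) of each gene with a larger value of at least 50 in the members and in 7 related lists. Points are genes, black bars are list medians, and dashed lines mark 2-fold. The members have a median of −0.71, box H/ACA proteins −0.81 and regulators of TOP messenger RNA translation 0.05.

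As for likeness, the medians of the members' values were 136 without dox and 103 with dox, which are those of Snhg6, the member with the log2 ratio nearest to 0. The 5 genes nearest to it, by Euclidean distance on log2(value plus 10) over the 2 libraries, were Jam3, Slc41a1, Brd9, Zcchc3 and R3hdm4. Jam3 and Slc41a1 both stood at 135 and 102. All 5 are protein coding. They are therefore near Snhg6 and not near the members' median log2 ratio of −0.71, and 2 libraries leave little to tell patterns apart.

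The libraries as a whole were checked for their labels. Jun stood at 55 without dox and 3821 with dox. Of 8 ES cell markers all were present in both libraries, and 5 were at least 2-fold lower with dox, among them Nanog at 2508 and 623, Esrrb at 1531 and 500, Tdgf1 at 1137 and 231 and Zfp42 at 1047 and 459. Of all genes 5.49% were at least 2-fold lower. Pou5f1 had values of 3230 and 3572 and was chosen for mention with these known. All 8 fibroblast markers were under the floor, with a summed value of 29 without dox and 72 with dox and Lum and Dcn at 0 in both. The 5 measured extraembryonic markers were also under it, with sums of 68 and 84. Of 5 blood and endothelial markers Csf1r, at 1 and 111, and Cd68, at 19 and 96, were at least 2-fold higher with dox, while Pecam1, the one with the largest value, stood at 205 and 152, Kdr at 8 and 3 and Ptprc at 0 and 19, and the list summed to 233 and 381. Csf1r and Cd68 reached the floor only through the library with dox, and 9.23% of all genes were at least 2-fold higher. In bulk RNA, fewer cells of a type and less RNA per cell cannot be told apart. The part of these markers in the members' values was not tested.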

How the data were processed

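Total RNA of 2 suspension cultures, 1 per group, was sequenced after library preparation with a TruSeq RNA kit, per the labels' protocols. Groups were taken from the agent given in the labels. The submitters' processing notes name bcl2fastq, RSEM and Bowtie2 with the build mm10. Versions, annotation, filter and normalization were not given in the sources used here. Values deposited by the authors were read as a score, on a count scale that is taken to be normalized. They are whole numbers, but their quartiles were 14, 62 and 184 in each library, and at 75.5% of ranks the sorted values were equal. Depth is therefore unknown, no counting interval is given and no count model was used. The table had 0 further columns of samples.

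Log2 ratios used a pseudocount of 10, and genes entered where the larger value was at least 50. A call is a ratio of 2-fold or more and describes these 2 libraries, with no test, p-value or SD. The 7 members and the 14 gene lists were chosen with earlier results of these data known. Genes were named by rule: all members, opposite-strand neighbours (start within 5000 nt, or overlapping), all measured noncoding hosts, and up to 4 genes in other lists. In those lists these were the genes past 2-fold, otherwise those with the largest values. Markers of other cell types were also named where they were at 0 or completed a list, and genes outside the rule are said to be named after their values were seen. Some results within this rule are not reported here.

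Annotation came from GENCODE M21 (GRCm38, the assembly that mm10 also names), matched by symbol. Of the 14259 distinct symbols 14139 matched (99.2%), and 8472 tested genes had a transcript length. A gene counted as a host where a snoRNA gene lay within it on the same strand, and noncoding genes were those annotated as long noncoding types, which included Cct6a. An unnamed snoRNA was classed as box C/D where box C began within 15 bases of its 5′ end and box D within 15 of its 3′ end. The length trend was a lowess fit (fraction 0.3). Alternatives were pseudocounts of 1 and 50, no floor or a floor of 250, centring, removal of the length trend and a 1.5-fold threshold. The steps were tested on simulated data and run in Python 3.11.15 (statsmodels 0.14.6, pandas 2.3.3, numpy 2.4.6, matplotlib 3.10.9).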

Additional observations from a re-analysis of the deposited data

How the results depend on the processing

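The count of members at least 2-fold lower with dox was 1 of 5. It was 0 with the length trend removed and 3 at a 1.5-fold threshold, where 17.7% of all genes passed, and it was 1 under the other alternatives run. The members' median log2 ratio of −0.71 ranged from −1.06 with a floor of 250, which leaves Snhg5 and Gas5, to −0.27 with the length trend removed, and it was −0.46 with a pseudocount of 50. A pseudocount or a floor cannot change the sign of a ratio, which fixes it in 17 of the 32 values of single members under an alternative. Of the other 15, from centring and both length trends, 14 were below 0. The exception was Snhg6, at 0.053 with the length trend removed. Its value lay close to the fitted trend of −0.42 at its length. With no spread between replicates, a value was taken to have moved where it differed by 1.5-fold or more. No paired analysis was possible because each group has 1 library and the result comes from no test. Depth is unknown, so the counting error of low values such as those of Snhg3 and Snhg12 cannot be given.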

Other observations

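Other nuclear or long noncoding RNAs, none of them among the members, were a further list. Meg3 and Rian in it are also among the listed hosts. Of 14 such genes with a row, 7 were under the floor. Of the 7 that reached it, 2 were past 2-fold upward with dox and 0 downward, and the median log2 ratio was 0.56. Of all genes 9.23% were at least 2-fold higher and 5.49% at least 2-fold lower. Among the 108 noncoding genes without an annotated snoRNA these shares were 1.85% and 18.5%. Neat1, the RNA that builds paraspeckles, stood at 118 without dox and 736 with dox, beside Rian. Tug1, at 391 and 363, and Kcnq1ot1, at 174 and 154, had smaller values with dox and were named after their values were seen. The longest transcripts of the 7 that reached the floor had a median of 8089 nt, against 1221 nt for the members. With the length trend removed the median log2 ratio of these 7 genes was 0.40. The difference from the members was not tested.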
